A study of Mus musculus with 31 samples.

Results

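The transcripts described here are 10 genes that mark the epithelium of the choroid plexus and the ciliated ependyma, out of 55401 genes in the count tables. They were chosen by name, as markers of these cells, with earlier results of these data known. The 6 choroid plexus genes are Ttr, Folr1, Kl, Clic6, Kcnj13 and Enpp2, and the 4 ependymal genes are Foxj1, Ccdc153, Tmem212 and Rarres2. All 10 have a row in each table. RNA-seq counts were taken from 31 libraries of mice of 13 months of age, 22 of CD11b+ microglia and 9 of temporo-occipital cortex, made to ask how the PLCγ2-P522R variant acts in a mouse model of β-amyloid pathology. Total counts were 16229831 to 25118180 in the CD11b+ libraries and 25226544 to 43129427 in the cortex libraries.

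The mice were on a C57BL/6J background. A+ mice carry the APP/PS1 transgenes (Swedish mutant APP and PS1 without exon 9, both driven by the mouse prion protein promoter), and A- mice do not. Pki/ki, or KI, denotes mice homozygous for the variant, introduced into the mouse gene by CRISPR/Cas9, and Pwt/wt, or WT, denotes mice without it. CD11b+ libraries came from female A-/Pwt/wt (n = 7), A+/Pwt/wt (n = 4) and A+/Pki/ki (n = 4) mice and from male WT (n = 3) and KI (n = 4) mice without the transgenes. Cortex libraries came from female A-/Pwt/wt (n = 1), A+/Pwt/wt (n = 4) and A+/Pki/ki (n = 4) mice. For CD11b+ cells, brains were digested with enzymes and the cells held on CD11b magnetic beads, so all cells of the brain entered the preparation, whereas the cortex samples were pieces of tissue with no sort. RNA was extracted with a column kit from the CD11b+ cells and with a phenol reagent from cortex. The mouse number 236 is given for a CD11b+ A-/Pwt/wt and for a cortex A+/Pwt/wt library, and both labels were used as they stand.

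The choroid plexus lies in the brain ventricles, where its epithelium makes cerebrospinal fluid and secretes carrier proteins into it. The ependyma lines the ventricle walls with cells whose motile cilia move this fluid. Neither belongs to the cortex or to the microglial lineage, and the epithelium does not carry the integrin CD11b. The sorted cells matched their label: the 10 microglial markers summed to 12131 to 24763 CPM (a gene's counts as a share of its library's, per 1 000 000, scaled by TMM) in the CD11b+ libraries and to 366 to 755 CPM in cortex. Other cells were present too. In CD11b+ libraries the 12 oligodendrocyte markers summed to 7180 to 80066 CPM and the 15 neuronal markers to 191 to 4946 CPM. None of the defining markers of either list was at 0 in all libraries of a CD11b+ group. In cortex the oligodendrocyte sum was 3770 to 6310 CPM and the neuronal sum 12810 to 14425 CPM. The oligodendrocyte sum rests largely on Mbp and Mobp, which averaged 26635 and 9043 CPM in CD11b+ libraries. In A+/Pwt/wt mice 2 of the 12 oligodendrocyte markers were higher in CD11b+ cells than in cortex and 10 were lower.

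Promoter sequence was searched for motifs in the members for which it was available. RefSeq promoter windows (build GRCm38.p6, from 250 bases before to 50 after the start) matched 4 of the 10 genes, and Ttr, Folr1, Clic6, Enpp2, Foxj1 and Rarres2 were not matched. The stretches from 200 to 2 bases before the start are shown for 2 choroid plexus genes (Kl and Kcnj13) and 2 ependymal genes (Ccdc153 and Tmem212), 5′ to 3′ on the strand of the gene, with a match to a searched motif in capitals. They lie at chr5:150952407-150952605 (Kl, + strand), chr1:87394731-87394929 (Kcnj13, - strand), chr9:44240477-44240675 (Ccdc153, + strand) and chr3:27896370-27896568 (Tmem212, - strand).
Kl: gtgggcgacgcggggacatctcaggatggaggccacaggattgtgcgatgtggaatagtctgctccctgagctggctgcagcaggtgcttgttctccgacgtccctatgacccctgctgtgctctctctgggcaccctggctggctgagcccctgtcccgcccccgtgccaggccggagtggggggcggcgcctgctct
Kcnj13: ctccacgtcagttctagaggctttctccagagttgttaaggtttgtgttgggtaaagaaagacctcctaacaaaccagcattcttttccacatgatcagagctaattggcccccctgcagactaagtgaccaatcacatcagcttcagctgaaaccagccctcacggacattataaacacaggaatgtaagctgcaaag
Ccdc153: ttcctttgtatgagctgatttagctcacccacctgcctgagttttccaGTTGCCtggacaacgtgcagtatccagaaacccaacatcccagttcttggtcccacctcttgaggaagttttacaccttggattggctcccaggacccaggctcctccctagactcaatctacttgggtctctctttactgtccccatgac
Tmem212: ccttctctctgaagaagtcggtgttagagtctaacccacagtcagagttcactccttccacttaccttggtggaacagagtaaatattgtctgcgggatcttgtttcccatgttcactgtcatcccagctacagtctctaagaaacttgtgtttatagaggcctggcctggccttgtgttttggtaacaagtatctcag
Motifs were searched on both strands of the whole window. The RFX half-site GTTGCC, bound by factors that control cilium genes, occurred in 1 of the 4 windows, that of Ccdc153, and in 12.5% of 32851 promoters. The forkhead core GTAAACA (3.65% of promoters) and the OTX core TAATCC (7.06%) occurred in 0 of the 4 windows. A match is a description of these letters only.

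Ttr encodes transthyretin, the carrier of thyroid hormone and retinol in cerebrospinal fluid, and lies at chr18:20665280-20674321. It was the most abundant member in every CD11b+ group. In female CD11b+ libraries of A+/Pwt/wt mice Ttr was 580, 1325, 2599 and 2888 CPM, and in A+/Pki/ki mice it was 104, 145, 888 and 2388 CPM. In the 7 A-/Pwt/wt libraries it was 643 at the lowest, 1657 at the median and 2826 CPM at the highest. The 3 female groups overlapped, and the lowest values were those of mice 405 and 394 of the A+/Pki/ki group. In males Ttr was 2620, 4300 and 4366 CPM in WT and 2784, 3271, 6697 and 8876 CPM in KI mice. The male groups overlapped, but KI held both highest values of all libraries. In the KI library of mouse 84, Ttr was the 6th most counted gene and took 0.909% of all counts.

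In cortex Ttr was far lower. It was 8.33, 32.7, 64.5 and 72.6 CPM in A+/Pwt/wt, 16.7, 49.9, 58.2 and 484 CPM in A+/Pki/ki and 139 CPM in the single A-/Pwt/wt library. The value of 484 CPM, of mouse 184, stood apart from the other A+/Pki/ki libraries. Over the 9 cortex libraries the highest value was 58.1 times the lowest, and over the 22 CD11b+ libraries 85.2 times. Ordered by mean, Ttr was highest in male KI (5407 ± 2895 CPM, SD), then male WT (3762 ± 989), female A+/Pwt/wt (1848 ± 1084), A-/Pwt/wt (1593 ± 738) and A+/Pki/ki (881 ± 1067) CD11b+ cells, followed by cortex of A+/Pki/ki (152 ± 222), A-/Pwt/wt (139, 1 library) and A+/Pwt/wt mice (44.5 ± 29.7). Each group overlapped the next in this order, except that the single A-/Pwt/wt cortex library lay above the 4 A+/Pwt/wt cortex libraries.

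**Figure D1:**
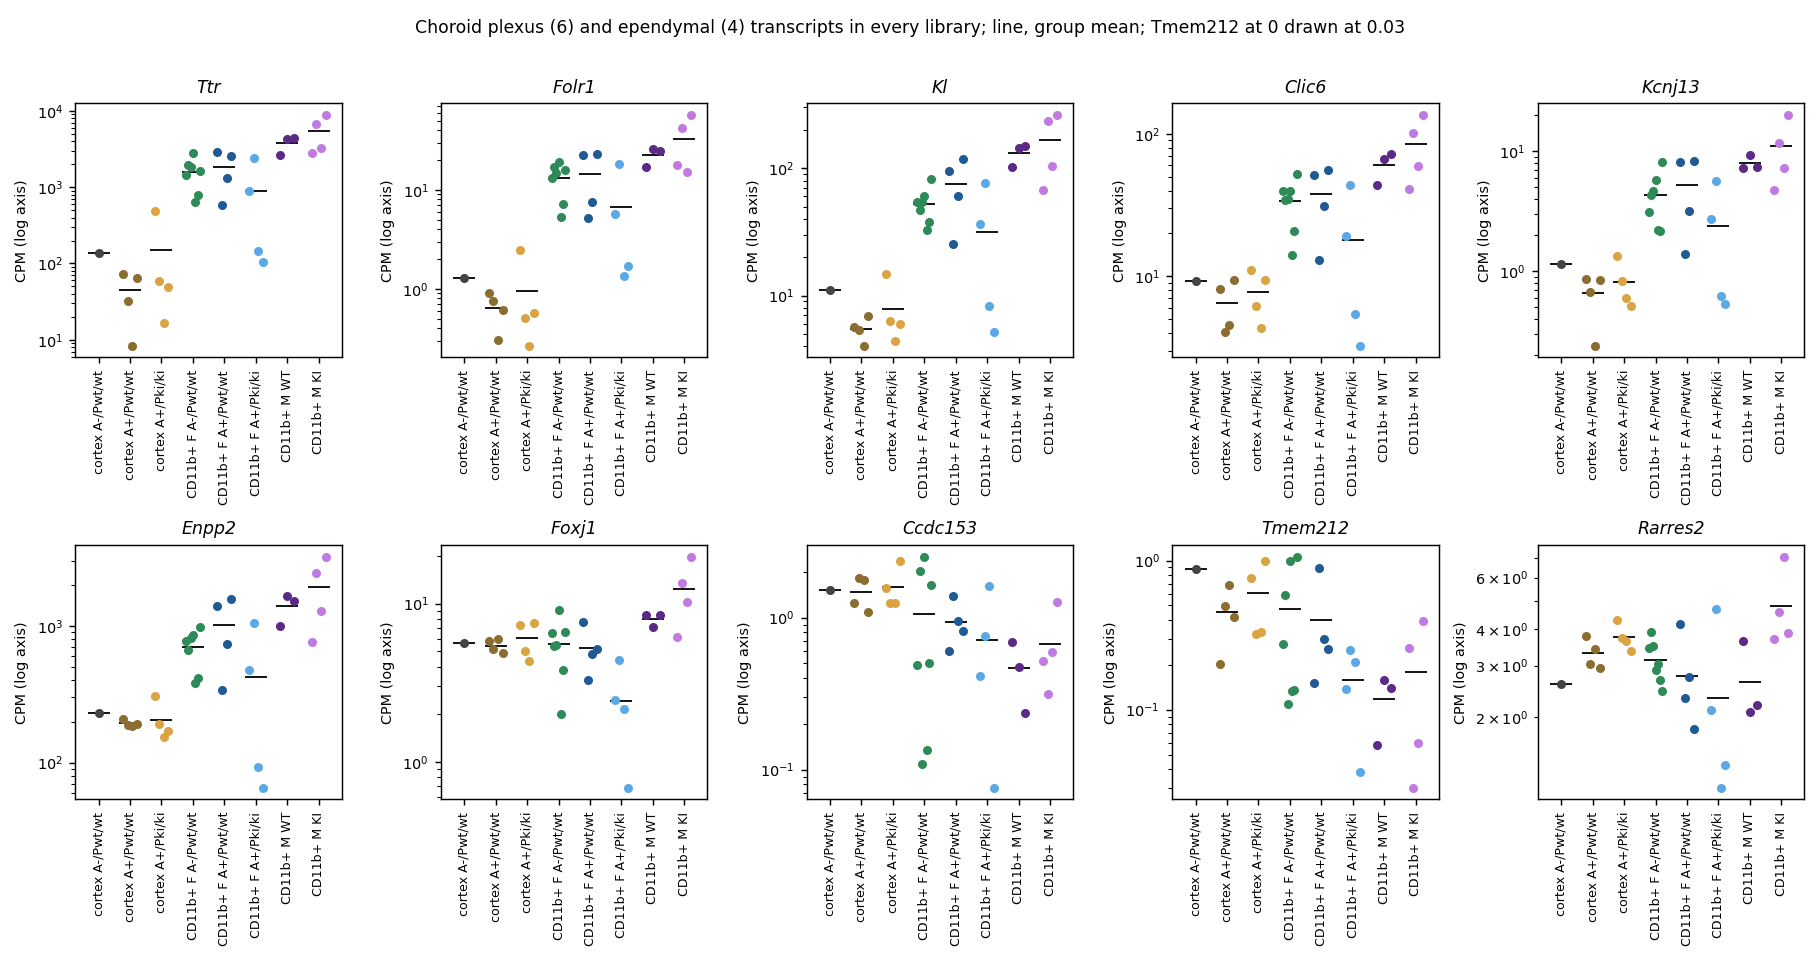
CPM on a log axis of each of the 10 genes in every library, by tissue, sex (F or M) and genotype, with each point a library and the line the group mean. The 6 choroid plexus genes shared a profile, with Ttr between 104 and 8876 CPM in CD11b+ libraries and 8.33 and 484 CPM in cortex, whereas Ccdc153, Tmem212 and Rarres2 did not show it.

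Enpp2 encodes autotaxin, the secreted enzyme that makes lysophosphatidic acid, and lies at chr15:54838901-54952892. Its exons overlap those of Gm26684 on the other strand, and counts were made without strand. In female CD11b+ libraries Enpp2 was 340, 735, 1406 and 1565 CPM in A+/Pwt/wt and 65.6, 93.7, 473 and 1056 CPM in A+/Pki/ki mice. In males it was 1006, 1517 and 1664 CPM in WT and 761, 1296, 2448 and 3214 CPM in KI. The groups overlapped in both sexes. In cortex, where oligodendrocytes also make autotaxin, Enpp2 was 185 to 210 CPM in A+/Pwt/wt and 153 to 309 CPM in A+/Pki/ki mice, again highest in mouse 184. In the CD11b+ libraries of mice 405 and 394 Enpp2 was lower than in every cortex library.

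The other 4 choroid plexus genes were less abundant. Kl encodes klotho, the co-receptor for an endocrine fibroblast growth factor, and lies at chr5:150952607-150993817. It was 25.4, 60.2, 95.3 and 119 CPM in female A+/Pwt/wt and 5.18, 8.3, 36.6 and 77.1 CPM in A+/Pki/ki CD11b+ libraries. Folr1 encodes a folate receptor that brings folate into cerebrospinal fluid, and lies at chr7:101858331-101870788. It was 5.24, 7.45, 22.5 and 22.9 CPM in A+/Pwt/wt and 1.36, 1.71, 5.68 and 18.2 CPM in A+/Pki/ki. The groups overlapped for both genes, and mice 405 and 394 were lowest. Clic6 encodes a protein of the chloride intracellular channel family (chr16:92485736-92541243). It averaged 37.8 ± 19.7 CPM in A+/Pwt/wt and 17.9 ± 18.7 CPM in A+/Pki/ki (SD, n = 4 each). Kcnj13 encodes the inward rectifier potassium channel Kir7.1 (chr1:87386363-87394729), whose exons overlap those of Gigyf2 on the other strand. It averaged 5.21 ± 3.46 and 2.38 ± 2.4 CPM. Male WT and KI means were 133 ± 26.4 and 167 ± 95.1 CPM for Kl, 22.4 ± 4.88 and 32.9 ± 20 CPM for Folr1, 60.7 ± 15.1 and 84.7 ± 42.6 CPM for Clic6, and 7.95 ± 1.09 and 10.9 ± 6.72 CPM for Kcnj13.

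Per kilobase of exon, the order of the choroid plexus genes was nearly the same in every CD11b+ group. In male WT cells Ttr had 3172 CPM per kilobase, Enpp2 242, Clic6 15.5, Kl 14.2, Folr1 9.76 and Kcnj13 6.26. The spread of Clic6 (3.87, SD) and of Kl (2.83) exceeded their difference. In the A-/Pwt/wt group Folr1 (5.76) was ahead of Kl (5.66), again a difference within their SD. In cortex of A+/Pwt/wt mice the order changed: Ttr (37.6) and Enpp2 (33.6 CPM per kilobase) were alike within the SD of Ttr (25), followed by Foxj1 (2.07), while Folr1 came last (0.28).

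Among the ependymal genes, Foxj1 encodes the transcription factor that directs the making of motile cilia (chr11:116330704-116335399). It was 3.27, 4.83, 5.15 and 7.68 CPM in female A+/Pwt/wt and 0.685, 2.14, 2.45 and 4.43 CPM in A+/Pki/ki CD11b+ libraries. The groups overlapped, with 3 of 4 A+/Pki/ki libraries below every A+/Pwt/wt library. In males it was 7.17, 8.47 and 8.51 CPM in WT and 6.17, 10.2, 13.5 and 19.8 CPM in KI mice. In cortex it was 4.31 to 7.59 CPM over all 9 libraries. The mean in female CD11b+ cells was 5.55 ± 2.24 CPM in A-/Pwt/wt, 5.23 ± 1.83 in A+/Pwt/wt and 2.43 ± 1.54 in A+/Pki/ki mice, and in cortex it was 5.44 ± 0.511 in A+/Pwt/wt and 6.06 ± 1.63 in A+/Pki/ki mice.

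The remaining ependymal genes were scarce everywhere. Ccdc153, a coiled-coil protein gene of ciliated cells (chr9:44240676-44247306), was 0.0761 to 2.51 CPM in CD11b+ and 1.08 to 2.34 CPM in cortex libraries. Tmem212, a transmembrane protein gene of ciliated cells (chr3:27866066-27896368), was 0 to 1.06 CPM and 0.203 to 0.993 CPM. Within the A-/Pwt/wt CD11b+ group both genes were highest in mice 236, 245 and 224, where Ccdc153 was 2.51, 1.63 and 2.02 CPM and Tmem212 1, 1.06 and 0.592 CPM, and lower in the other 4 libraries. Rarres2 encodes the chemoattractant chemerin (chr6:48569696-48572789), and its exons overlap those of Lrrc61 on the other strand. It varied least, from 1.15 to 7.06 CPM in CD11b+ and from 2.6 to 4.29 CPM in cortex libraries.

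The choroid plexus genes rose and fell together from library to library of CD11b+ cells. Likeness was measured as Pearson's r of deviations from the group mean of log2(CPM + 0.5), over 22 libraries that share their dissociation and their scaling. With Ttr, r was 0.974 for Enpp2, 0.967 for Clic6, 0.959 for Folr1, 0.952 for Kl and 0.923 for Kcnj13. Spearman's rho was 0.898 to 0.944 for these 5 genes, and r was 0.908 to 0.956 without the 2 libraries farthest from the median of Ttr. They ranked 4th, 6th, 11th, 15th and 31st of 14787 genes averaging 1 CPM or more. Foxj1 followed less closely (r = 0.828, rho = 0.818, r = 0.745 without the 2 libraries). Rarres2 (0.528), Ccdc153 (0.195) and Tmem212 (0.166) had low values, and that of Rarres2 was 0.209 without the 2 libraries.

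The 5 genes most like Ttr in CD11b+ cells were Col9a3 (r = 0.996, rho = 0.989), Ecrg4 (0.991, 0.973), Igfbp2 (0.983, 0.980), Enpp2 itself and Spint2 (0.972, 0.951). Of the 33 further choroid plexus genes that could be ranked, 26 had r of at least 0.8 and 16 of at least 0.9, and their median r was 0.90. Among all 14787 genes the median was -0.02 and 1.41% reached 0.8. Of 29 further ependymal and motile cilium genes, 3 reached 0.8, with a median of 0.51. Col9a3 encodes a chain of collagen IX. Igfbp2, which encodes an insulin-like growth factor binding protein, and Spint2, which encodes a protease inhibitor, stand in the list of further choroid plexus genes. Another gene of that list, 1500015O10Rik, had no row under this name, so these tallies leave it out. Rows under other names for it were not searched, so its absence from the data is not shown.

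**Figure D2:**
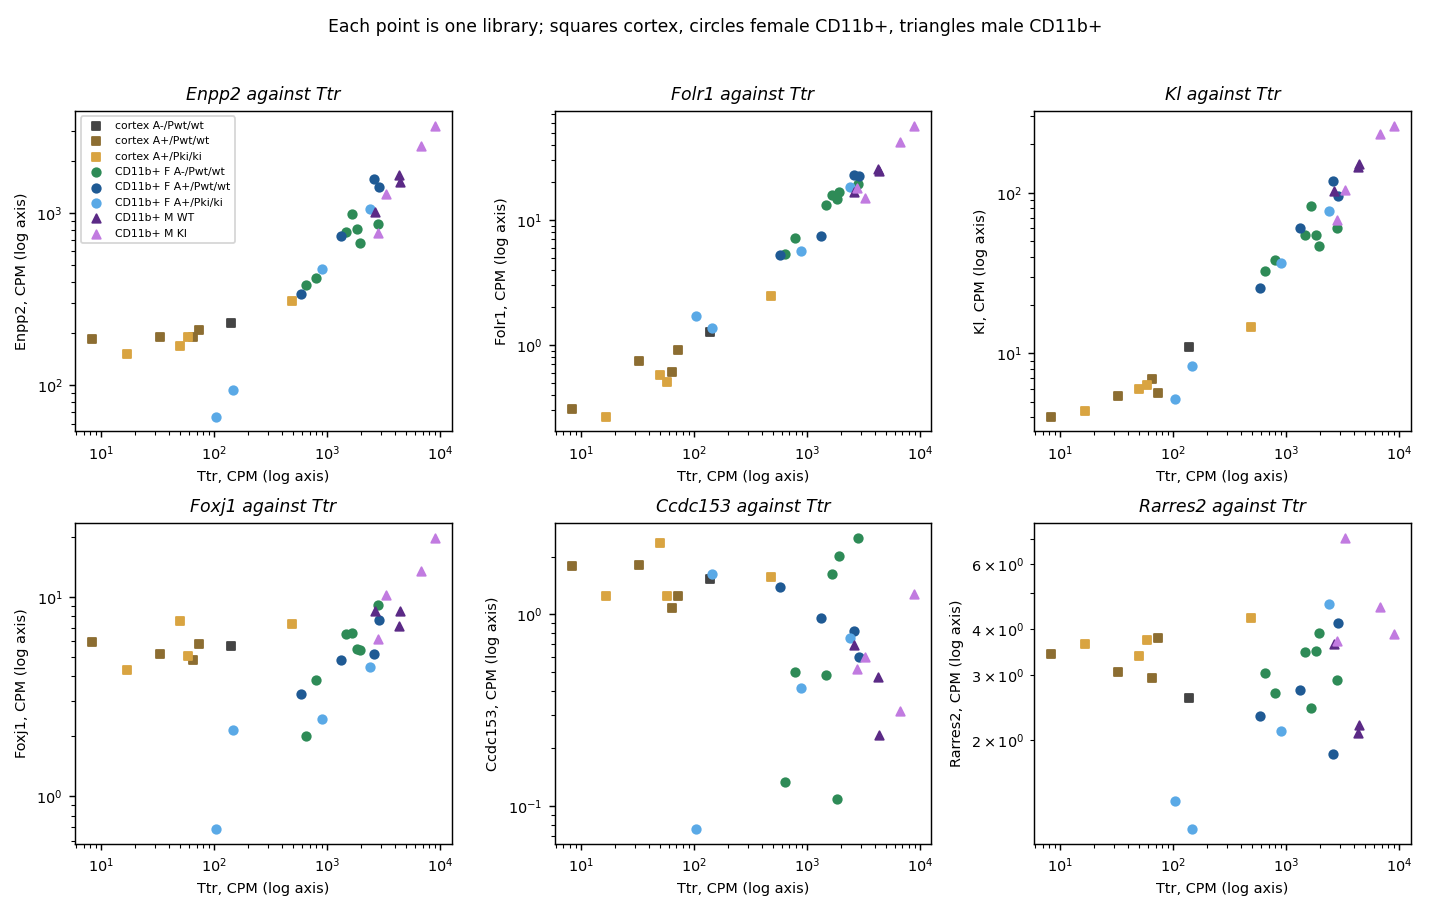
Level of 6 genes against that of Ttr, both in CPM on log axes, with each point a library, squares for cortex, circles for female and triangles for male CD11b+ cells. Enpp2, Folr1 and Kl followed Ttr over the CD11b+ libraries (r = 0.974, 0.959 and 0.952 within groups), Foxj1 followed it in part (0.828), and Ccdc153 and Rarres2 were scattered.

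Ccdc153 was most like Tmem212, with r = 0.812 and rho = 0.849 in the same 22 libraries (0.774 without the 2 libraries farthest from the median of Ccdc153), although Tmem212 and Ccdc153 had under 1 CPM on average and so were not ranked. With Foxj1 its r was 0.488 and its rho 0.284. The 5 ranked genes most like Ccdc153 were Ubb-ps (0.717), Rdh10 (0.693), Sertad1 (0.679), Phospho2 (0.674) and Nmrk1 (0.644). None of the 14788 ranked genes reached 0.8, and none of the 5 is in a list of ependymal genes.

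In cortex, over the 8 libraries of A+ mice, Kl (r = 0.955, rho = 0.976), Folr1 (0.936, 0.952), Kcnj13 (0.907, 0.929), Enpp2 (0.870, 0.976) and Clic6 (0.793, 0.810) also followed Ttr. Without the 2 libraries farthest from the median of Ttr, r was 0.895 for Kl and 0.831 for Folr1 but 0.563 for Enpp2. Of the 17 further choroid plexus genes that could be ranked in cortex, 1 reached 0.8, with a median r of 0.40 (-0.03 over all genes). Among all 14875 genes ranked over these 8 libraries, 1.36% reached 0.8 with Ttr and 0.403% with Ccdc153. The 5 genes most like Ttr there were Ecrg4 (0.976), Tmem41b (0.970), Ptp4a2 (0.957), Zfp212 (0.957) and Bcap29 (0.956). Those most like Ccdc153 were Kdelr1 (0.974), Krcc1 (0.945), Ormdl2 (0.942), Smim10l2a (0.936) and Faim (0.936), and the r of Ccdc153 was 0.825 with Tmem212 and 0.696 with Foxj1.

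The proportions of the choroid plexus transcripts were held more closely in CD11b+ cells than in cortex. Per 100 counts of Ttr, there were 27.3 to 64.5 counts of Enpp2 in the 22 CD11b+ libraries (median 46.4) and 63.8 to 2216 in the 9 cortex libraries (median 329). For Kl the ranges were 2.13 to 5.71 and 3.03 to 48.4, and for Folr1 0.462 to 1.65 and 0.508 to 3.69. The SD of log2 Ttr over CD11b+ libraries was 1.58, whereas the SD of the log2 ratio of the other 5 genes to Ttr was 0.37 to 0.45. In cortex the latter was 0.84 to 1.45. There the highest CPM was 58.1 times the lowest for Ttr, but 2.02 times for Enpp2, 2.74 for Clic6, 3.64 for Kl, 5.56 for Kcnj13 and 9.23 for Folr1. Some cortex ratios rest on few counts, as in mouse 259 with 9 of Folr1, 7 of Kcnj13 and 244 of Ttr. In mouse 184, the cortex library with the most Ttr, the ratios for Enpp2 (63.8), Kl (3.03), Clic6 (2.29), Folr1 (0.508) and Kcnj13 (0.275) were the lowest of the 9 cortex libraries, and each lay within the CD11b+ range of that gene.

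**Figure D3:**
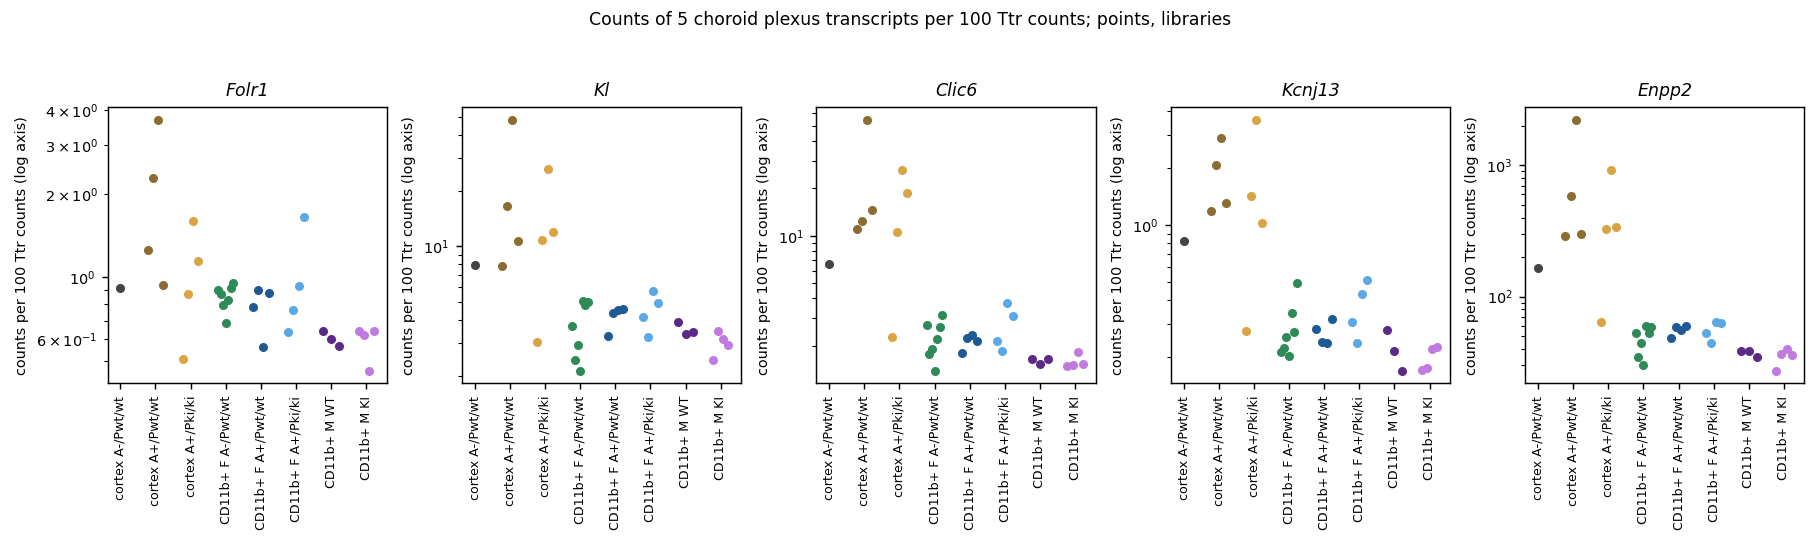
Counts of 5 choroid plexus genes per 100 counts of Ttr on a log axis, with each point a library. Enpp2 lay between 27.3 and 64.5 in the CD11b+ libraries and between 63.8 and 2216 in cortex, where the lowest point is mouse 184.

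Other cell markers moved with Ttr as well. Within CD11b+ groups, the r of Ttr with the summed level of a list was 0.94 for the 34 further choroid plexus genes, 0.75 for 54 further ependymal and cilium genes, 0.75 for oligodendrocytes, 0.68 for astrocytes, 0.61 for neurons and -0.58 for microglia. It was 0.55 for endothelial cells, 0.54 for mural cells, 0.50 for fibroblasts and leptomeninges, 0.12 for border macrophages and 0.08 for oligodendrocyte precursors. The summed level of the 4 ependymal members had r = 0.79 with Ttr, and 0.63 without the 2 libraries farthest from the median of Ttr. Without these 2 libraries r was 0.91 for the further choroid plexus genes and 0.72 for the further ependymal and cilium genes. It was 0.56 for oligodendrocytes, 0.35 for neurons and -0.43 for microglia. The part of such cells in the level of the members was not tested.

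The sorted cells were compared with cortex first, since both tissues were collected from each A+ genotype. In these comparisons tissue, brain region, dissociation, RNA extraction and mice differ together and cannot be told apart. The CD11b+ cells came from the whole brain, and the cortex samples from the temporo-occipital region alone. In A+/Pwt/wt mice all 6 choroid plexus genes were higher in CD11b+ cells than in cortex, and the 4 ependymal genes did not pass the test. With a threshold of adjusted p 0.05 by edgeR's quasi-likelihood test, 77.9% of 18541 genes were called, 37.7% as higher and 40.2% as lower. The log2FC (log2 fold change) was 5.47 ± 0.72 (SE) for Ttr (adjusted p = 3.72e-05), 4.56 ± 0.54 for Folr1 (1.63e-05), 3.86 ± 0.42 for Kl (7.92e-06), 3.05 ± 0.56 for Kcnj13 (0.000489), 2.62 ± 0.43 for Clic6 (0.000187) and 2.47 ± 0.39 for Enpp2 (0.000145). For each of the 6 genes, all 4 CD11b+ libraries lay above all 4 cortex libraries, and 72.9% of all genes had no overlap between these groups in either direction. The log2FC was 0.03 for Foxj1 (95% interval -0.48 to 0.53), -0.55 for Ccdc153 (-1.27 to 0.17), -0.02 for Tmem212 (-1.3 to 1.26) and -0.17 for Rarres2 (-0.71 to 0.37).

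The further lists gave the same contrast between the 2 cell types. Of 34 further choroid plexus genes tested, 26 were higher and 0 lower, with a median log2FC of 2.78 (-0.06 over all genes). The 3 most abundant in CD11b+ cells were Ace, encoding angiotensin-converting enzyme (1.94 ± 0.22, adjusted p = 1.07e-05), Igfbp2 (0.40 ± 0.39, 0.363) and Trpv4, encoding a cation channel (3.97 ± 0.27, 1.67e-07). Ace is also made by endothelial cells, whose 10 markers were all higher in CD11b+ cells. Trpv4 did not share the spread of Ttr. In A+/Pki/ki CD11b+ libraries it was 23.8 to 33.5 CPM, against 104 to 2388 CPM for Ttr and 3.65 to 55.2 CPM for Igfbp2. The source of Trpv4 was not tested. Of 48 further ependymal and cilium genes, 11 were higher and 16 lower, with a median of -0.24. Rfx3, encoding a ciliogenic transcription factor, was lower (-1.65 ± 0.14, adjusted p = 1.28e-06), as was Ccdc39, encoding an axonemal ruler protein (-0.9 ± 0.17, 0.000662), and Cfap65 was higher (0.79 ± 0.27, 0.0181).

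In A+/Pki/ki mice 4 of the 10 members were called, where 76.6% of 18954 genes were, 36.8% as higher and 39.8% as lower. Folr1 (2.97 ± 1.01, adjusted p = 0.025) and Kl (2.14 ± 0.84, 0.0432) were higher in CD11b+ cells. Foxj1 (-1.21 ± 0.48, 0.0454) and Tmem212 (-1.83 ± 0.61, 0.0226) were lower. Values for the others were 2.65 ± 1.31 for Ttr (0.0949), 1.67 ± 0.75 for Kcnj13 (0.0709), 1.33 ± 0.76 for Clic6 (0.139), 1.15 ± 0.8 for Enpp2 (0.217), -1.08 ± 0.66 for Ccdc153 (0.166) and -0.57 ± 0.42 for Rarres2 (0.236). Of the further choroid plexus genes 11 of 33 were higher and 1 was lower, and of the further cilium genes 4 of 48 were higher and 21 lower. The calls rested on single libraries: leaving out 1 library gave 0 (without cortex mouse 222) to 5 called members (without CD11b+ mouse 394). Of 8 such fits, Folr1 lost its call in 4, Kl in 5, Foxj1 in 6 and Tmem212 in 4. Without CD11b+ mouse 335, Folr1 (1.79) and Kl (1.22) were among the calls lost, and Ttr was 1.43. Without cortex mouse 184 Ttr was 4.51 and gained a call. Whether the tissue difference itself differed between genotypes was not tested.

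The next question was whether the variant changed these transcripts in APP/PS1 mice. In female CD11b+ cells 0 of 9 tested members were called, and 0% of 17039 genes were called in all (575 genes and none of the members had p under 0.05 before adjustment, and DESeq2's Wald test called 7 genes and 0 members). The 6 choroid plexus genes had log2FC of -1.06 ± 0.97 (Ttr), -1.11 ± 0.86 (Folr1), -1.24 ± 0.83 (Kl), -1.08 ± 0.8 (Clic6), -1.13 ± 0.83 (Kcnj13) and -1.26 ± 0.88 (Enpp2), with an adjusted p of 0.853 for each. Without A+/Pki/ki mouse 335, which had the most Ttr of its group, they were -2.28, -2.30, -2.16, -2.03, -2.0 and -2.26 in the same order, and none was called. The 95% interval for Ttr was wide, from -3.28 to 1.15, so neither a fall nor a rise was detectable with this spread. Foxj1 was at -1.11 ± 0.51 (0.853), Ccdc153 at -0.41 ± 0.72 (0.874) and Rarres2 at -0.24 ± 0.48 (0.883). Tmem212 had too few counts to be tested. Of 33 further choroid plexus genes 0 were called, with a median log2FC of -1.12 (0 over all genes), and of 40 further cilium genes 0 were called, with a median of -0.77. From the highest to the lowest Ttr, the A+/Pki/ki libraries were those of mice 335, 244, 394 and 405. In this order the oligodendrocyte markers summed to 68644, 29061, 7180 and 7278 CPM and the neuronal markers to 2414, 577, 317 and 191 CPM. The microglial markers summed to 14166, 21502, 23161 and 23153 CPM, lowest where Ttr was highest. Their part in the values of the members was not tested. In bulk RNA, fewer cells of a type and less RNA per cell cannot be told apart.

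In cortex 0 of 10 members were called between A+/Pki/ki and A+/Pwt/wt mice, as were 0% of 18640 genes (514 genes and none of the members had p under 0.05 before adjustment, and DESeq2 called 11 genes and 0 members). Ttr had a log2FC of 1.75 ± 0.86 (adjusted p = 1), which was -0.12 without mouse 184. Folr1 (0.47 ± 0.59), Kl (0.47 ± 0.31), Clic6 (0.21 ± 0.3), Kcnj13 (0.24 ± 0.4) and Enpp2 (0.06 ± 0.18) were also below 0 without it. Values for the ependymal genes were 0.13 ± 0.18 (Foxj1), 0.1 ± 0.27 (Ccdc153), 0.42 ± 0.46 (Tmem212) and 0.15 ± 0.14 (Rarres2). The intervals were narrowest for Rarres2 (-0.16 to 0.47) and Enpp2 (-0.32 to 0.44). Of 31 further choroid plexus and 48 further cilium genes, 0 were called. In mouse 184 the 34 further choroid plexus genes summed to 253 CPM, within the 169 to 262 CPM of the other cortex libraries. The summed neuronal (13465 CPM), astrocyte (5442 CPM) and oligodendrocyte markers (6015 CPM) of this mouse were also within the range of the others. Its border macrophage markers summed to 7.78 CPM, the lowest of the cortex libraries, and the next lowest was 10.1 CPM.

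In male CD11b+ cells, KI was compared with WT without the transgenes. Again 0 of 9 tested members were called by edgeR or DESeq2, against 16.4% of 16373 genes by edgeR, and Rarres2 alone had p under 0.05 before adjustment. The log2FC was 0.48 ± 0.41 for Ttr, 0.51 ± 0.42 for Folr1, 0.29 ± 0.41 for Kl, 0.44 ± 0.36 for Clic6, 0.42 ± 0.41 for Kcnj13 and 0.43 ± 0.43 for Enpp2 (adjusted p 0.425 to 0.658). Without KI mouse 84, which had the most Ttr, these values were 0.19, 0.16, 0.03, 0.16, 0.00052 and 0.12 in the same order. It was 0.59 ± 0.33 for Foxj1 (0.239), 0.55 ± 0.55 for Ccdc153 (0.519) and 0.84 ± 0.32 for Rarres2 (0.102). Rarres2 was 2.09, 2.2 and 3.63 CPM in WT and 3.7, 3.87, 4.58 and 7.06 CPM in KI mice. The highest WT and the lowest KI value were close, and they crossed when only these 7 libraries were scaled together. Rarres2 and Foxj1 were called without the KI library of mouse 104, a fit in which the genes called rose from 2685 to 5439. Rarres2 was also called without the low-count filter. Of 34 further choroid plexus genes 0 were called (median 0.31), and of 40 further cilium genes 1 was, Dnaic2, encoding a dynein intermediate chain (1.1 ± 0.31, adjusted p = 0.0387), named here because it was the single call. In the same comparison 15 of 15 neuronal, 12 of 12 astrocyte and 8 of 12 oligodendrocyte markers were called as higher in KI. The neuronal markers summed to 213 to 314 CPM in WT and to 715 to 1547 CPM in KI. The part of these cells in the male values was not tested.

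**Figure D4:**
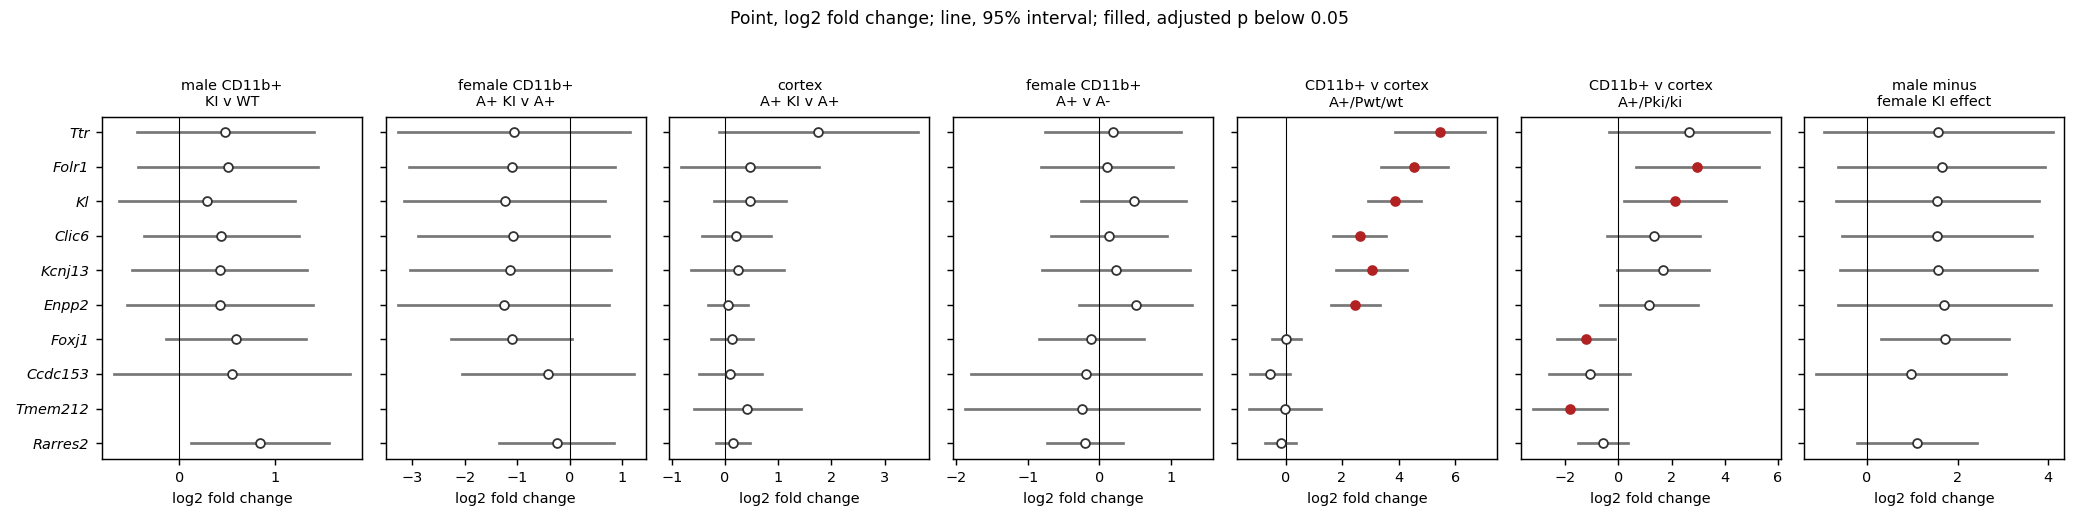
Log2 fold change of each tested member with its 95% interval (line) in the 7 comparisons, filled where the adjusted p was below 0.05. Filled points occur only in the comparisons of CD11b+ cells with cortex, 6 in A+/Pwt/wt and 4 in A+/Pki/ki mice.

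The transgenes were compared in female CD11b+ cells without the variant, where the labels give the batch tag b2 for A+/Pwt/wt and b3 for A-/Pwt/wt libraries, so transgene and batch cannot be told apart. By edgeR and by DESeq2 0 of 10 members were called, against 1.29% of 17355 genes by edgeR, and none of the members had p under 0.05 before adjustment. The log2FC was 0.19 ± 0.44 for Ttr, 0.11 ± 0.43 for Folr1, 0.48 ± 0.34 for Kl, 0.14 ± 0.38 for Clic6, 0.24 ± 0.48 for Kcnj13 and 0.51 ± 0.37 for Enpp2, with adjusted p of 0.749 to 0.992. Leaving out 1 library gave -0.10 (without A+/Pwt/wt mouse 331) to 0.48 for Ttr (without A+/Pwt/wt mouse 367). For Foxj1, Ccdc153, Tmem212 and Rarres2 it was -0.11 ± 0.34, -0.18 ± 0.75, -0.24 ± 0.76 and -0.2 ± 0.24. Of 34 further choroid plexus and 44 further cilium genes 0 were called, whereas 3 of 8 border macrophage markers were lower in A+/Pwt/wt.

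The effect of the variant in males minus that in APP/PS1 females was tested last. Sex, transgenes and batch tag differ together between these sets. For the members it was 1.54 to 1.72 for the choroid plexus genes and Foxj1, 0.98 ± 0.98 for Ccdc153 and 1.1 ± 0.62 for Rarres2. Here 0 of 9 tested members were called, as were 0% of 17619 genes (4664 genes, Foxj1 alone among the members, had p under 0.05 before adjustment, and DESeq2 called 1185 genes and 0 members). Foxj1 had the lowest adjusted p (1.72 ± 0.66, 0.149). Ttr was at 1.57 ± 1.18 (0.378), with an interval of -0.96 to 4.1. Without the A+/Pki/ki library of mouse 335, 6 members and 6199 genes were called, and Ttr was at 2.73. Without A+/Pki/ki mouse 405 it was at 1.20.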

How the data were processed

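The authors trimmed paired-end reads with Trimmomatic 0.39, mapped them with STAR 2.7.9a (build GRCm38, Gencode genes) and tallied uniquely placed reads for each gene without regard to strand. The deposited values used here are these raw counts of 55401 genes in 31 libraries. Variance-stabilized tables were not used. Library, sex, genotype and mouse number came from the labels, and nothing says whether litters were shared. The members and lists were chosen with earlier results of these data known.

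Levels are CPM scaled by TMM over all libraries. Each comparison was fitted on its own groups with edgeR 4.0.16 (glmQLFit and glmQLFTest, two-sided, R 4.3.3) on genes that reached 10 counts in 3 or more libraries, with Benjamini-Hochberg adjusted p over all genes tested. The SE was derived from the log2FC and F. The script was tested on simulated data. Exon lengths and coordinates are from a Gencode annotation of GRCm38 older than the authors' and may differ slightly. Named were all members, the 3 most abundant genes of each further list, and the 5 genes most like Ttr and like Ccdc153. Alternatives were DESeq2 1.42.0 size factors and Wald test, no filter, all groups in the fit, total-count scaling and leaving out each library.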

Additional observations from a re-analysis of the deposited data

Results flagged for a closer look

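Within a group of 4 libraries, 1 library stood apart from the others for 2 of the 10 genes, out of 60 groups tested, of which chance flags about 1 in 20. Both were cortex of the A+/Pki/ki mouse 184. Ttr was 484 CPM there and 58.2 CPM in the next library. Folr1 was 2.46 CPM there and 0.574 CPM in the next library.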

How the results depend on the processing

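The direction and call of a member's log2FC held in all 67 cases with DESeq2 size factors. With DESeq2's Wald test and with all groups in the fit, Ttr and Kcnj13 gained a call in A+/Pki/ki CD11b+ cells against cortex (adjusted p 0.0277 and 0.0369, and 0.0195 and 0.0299). Without the low-count filter 1 member was called in male CD11b+ cells (Rarres2) and 1 in cortex between genotypes (Ttr, adjusted p = 0.0332), where 40 genes were called in place of 0. DESeq2's Wald test called 7 genes in female A+/Pki/ki against A+/Pwt/wt CD11b+ cells, 11 in cortex, 636 in A+/Pwt/wt against A-/Pwt/wt and 1185 for the difference between males and females. Foxj1 in A+/Pwt/wt CD11b+ cells against cortex turned to -0.02 without the filter and -0.0028 with all groups. Total-count scaling moved 2 of 70 group means by more than 1 SD, Enpp2 to 214 and Foxj1 to 6.01 CPM in A+/Pwt/wt cortex. The causes were not tested.

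With 1 library left out, genes called ranged from 894 to 5439 in males (without WT mouse 102 and without KI mouse 104), 0 to 1 in female A+/Pki/ki against A+/Pwt/wt CD11b+ cells, 0 to 2 in cortex, 91 to 497 for A+/Pwt/wt against A-/Pwt/wt (without A+/Pwt/wt mouse 380 and A-/Pwt/wt mouse 223), and 0 to 6199 for the difference between males and females (the latter without A+/Pki/ki mouse 335). Members called ranged from 0 to 2 in males, 0 to 5 in A+/Pki/ki CD11b+ cells against cortex and 0 to 6 for the difference. The log2FC changed sign as follows. In cortex between genotypes it was -0.12 to 2.14 for Ttr, -0.56 to 0.81 for Folr1, -0.02 to 0.68 for Kl, -0.01 to 0.43 for Clic6, -0.09 to 0.41 for Kcnj13, -0.21 to 0.19 for Enpp2, -0.01 to 0.27 for Foxj1 and -0.16 to 0.22 for Ccdc153. For A+/Pwt/wt against A-/Pwt/wt it was -0.10 to 0.48 for Ttr, -0.23 to 0.39 for Folr1, -0.14 to 0.42 for Clic6, -0.10 to 0.55 for Kcnj13, -0.34 to 0.05 for Foxj1, -0.45 to 0.18 for Ccdc153 and -1.04 to 0.12 for Tmem212. For Rarres2 in female A+/Pki/ki against A+/Pwt/wt CD11b+ cells it was -0.81 to 0.01, and in A+/Pwt/wt CD11b+ cells against cortex it was -0.20 to 0.22 for Foxj1 and -0.82 to 0.27 for Tmem212. No paired analysis was possible because the groups compared share fewer than 2 mouse numbers.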
